A study of Homo sapiens with 2 samples.

Results

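The 42 genes described here encode the COPI and COPII vesicle coats and the proteins that work with them between the endoplasmic reticulum (ER) and the Golgi apparatus. They were selected by gene symbol from the 58174 genes listed in each library, and the group was chosen on measured values as well, because ARCN1 and SURF4 had moved far in opposite directions in these same libraries. The values of ARCN1 and SURF4 are therefore a description. All 42 symbols were found once, and 41 of the genes reached at least 1 TPM, a unit of abundance that corrects for transcript length and library size, in at least one of the libraries.

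The libraries came from PLC-8024, a human hepatocellular carcinoma (HCC) cell line, carrying the control vector (PLC-8024-CTR) or human GDF1 (PLC-8024-GDF1), a secreted ligand of the TGF-β superfamily. Per the methods of the study, GDF1 was introduced with lentivirus and stably transduced cells were selected with puromycin. How the control cells were made and selected is not described there. Each condition is 1 population of 1 line. Each condition has 1 library. No difference below has a replicate check, no test or p-value is given, and every statement compares these 2 libraries and not the conditions.

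The TPM values summed to 999990 in PLC-8024-CTR and 999995 in PLC-8024-GDF1, so the depth is unknown and no counting error is given. GDF1 was listed at 2.1 and 4.64 TPM and CERS1, whose span on the genome contains that of GDF1, at 13.3 and 9612 TPM. Both rows are of the native genes, and whether reads of the lentiviral GDF1 are listed under CERS1 was not tested. Of the 8 hepatocyte markers, 8 had at least 1 TPM in PLC-8024-CTR cells and 7 in PLC-8024-GDF1 cells, with summed levels of 11118 and 6836 TPM. TTR was the exception, at 7.17 and 0.34 TPM, and ALB stood at 15.0 and 6.07 TPM. Among markers of other cells, CD68 (33.1 and 13.2 TPM) and PECAM1 (23.2 and 22.2 TPM) were the only genes at 1 TPM or more. The leukocyte gene PTPRC, the endothelial gene VWF and the stromal genes COL1A2 and DCN were listed at 0 in both libraries. In bulk RNA, fewer expressing cells and less RNA per cell cannot be told apart.

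COPII vesicles carry newly made proteins out of the ER. The GTPase SAR1 is loaded by PREB and recruits the inner coat of SEC23 and SEC24, which binds cargo, and SEC13 and SEC31 then form the outer cage. COPI vesicles bud from the Golgi after GBF1 has loaded an ARF GTPase, which recruits coatomer, a complex with alpha, beta, beta-prime, gamma, delta, epsilon and zeta subunits, and they return escaped ER proteins. Hepatocytes depend on these routes to export plasma proteins and lipoproteins.

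Many genes of the secretory pathway carry sequences near their start that are bound by factors of the unfolded protein response. The TGACGTG core, counted on both strands, was found in the promoter windows of 13 of 37 genes of the group (35.1%), against 654 of 27305 genes (2.40%) in the RefSeq table of GRCh38.p14. A window runs from 250 bases before a transcript start to 50 bases after it. The 13 genes were ARF1, COPA, COPB1, COPB2, COPE, GBF1, KDELR3, SEC13, SEC16A, SEC23A, SEC24A, SEC61A1 and STX5. Members of both coats are shown because they share these letters, which stand in capitals and read CACGTCA where the match is on the other strand. Each is written 5′ to 3′ on the strand of its gene. COPB2 also holds a site 2 bases before another of its transcript starts, which is not shown. Of the windows of SEC16A, the most upstream alone holds the core.
COPA (chr1:160343219-160343265, minus strand): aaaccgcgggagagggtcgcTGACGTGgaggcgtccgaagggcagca
COPB1 (chr11:14499832-14499878, minus strand): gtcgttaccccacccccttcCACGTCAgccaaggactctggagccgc
COPB2 (chr3:139389816-139389862, minus strand): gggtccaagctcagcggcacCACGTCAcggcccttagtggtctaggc
COPE (chr19:18919365-18919411, minus strand): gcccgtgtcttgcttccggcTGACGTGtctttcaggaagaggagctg
SEC13 (chr3:10321229-10321275, minus strand): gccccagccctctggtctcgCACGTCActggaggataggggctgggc
SEC23A (chr14:39103213-39103259, minus strand): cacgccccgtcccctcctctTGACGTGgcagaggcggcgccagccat
SEC24A (chr5:134648586-134648632, plus strand): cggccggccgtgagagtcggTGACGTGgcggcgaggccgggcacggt
SEC16A (chr9:136484698-136484744, minus strand): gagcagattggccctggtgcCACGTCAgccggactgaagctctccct

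Neither ARCN1 nor SURF4 holds TGACGTG in its window, and both hold ACGTGGC, in capitals in the windows below. ACGTGGC was searched in all windows after those of this pair of genes had been read, so their own matches support nothing. It begins 18 bases before the start of ARCN1 and 53 bases before that of SURF4. The ARCN1 window has a GC content of 59% with 18 CG dinucleotides and the SURF4 window 79% with 49, both above the 58.3% that is the median over genes.
ARCN1 (chr11:118572159-118572458, plus strand): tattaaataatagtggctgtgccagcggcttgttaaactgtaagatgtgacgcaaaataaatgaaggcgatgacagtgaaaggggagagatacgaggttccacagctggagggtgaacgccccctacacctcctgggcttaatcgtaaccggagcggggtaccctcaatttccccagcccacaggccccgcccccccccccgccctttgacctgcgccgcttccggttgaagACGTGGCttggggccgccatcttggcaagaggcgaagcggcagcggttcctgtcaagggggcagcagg
SURF4 (chr9:133376011-133376310, minus strand): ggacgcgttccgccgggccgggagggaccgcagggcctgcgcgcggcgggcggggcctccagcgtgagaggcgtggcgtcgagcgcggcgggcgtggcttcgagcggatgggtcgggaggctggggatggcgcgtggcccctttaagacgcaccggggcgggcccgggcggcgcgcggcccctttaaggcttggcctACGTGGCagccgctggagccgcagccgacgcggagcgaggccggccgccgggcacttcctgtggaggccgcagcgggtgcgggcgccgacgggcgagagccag

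ARCN1 encodes delta-COP, a coatomer subunit. Its level was 1.65 TPM in PLC-8024-CTR cells and 24.1 TPM in PLC-8024-GDF1 cells, a plain ratio of 14.6. Changes below are log2 ratios of TPM + 1, with PLC-8024-GDF1 divided by PLC-8024-CTR. That of ARCN1 was 3.24, rank 16 from the top of the 14929 genes that reached 1 TPM. The pseudocount of 1 makes changes of low genes smaller. SURF4 encodes a cargo receptor of the ER membrane that loads secreted proteins into COPII vesicles. SURF4 went from 195.0 TPM in PLC-8024-CTR cells to 8.12 TPM in PLC-8024-GDF1 cells, 24.01-fold lower by the plain ratio, and its log2 change of -4.43 was rank 4 from the bottom. SEC24D, a cargo-binding COPII subunit, was the other gene past 2-fold. It stood at 8.96 and 3.04 TPM, a log2 change of -1.30.

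Of the 41 genes, 1 was higher past 2-fold (2.44%) and 2 were lower past 2-fold (4.88%). Among all genes, 4.82% were higher and 9.61% lower by the same measure. The other 38 lay within 2-fold. COPB1 (-0.99) and TMED2 (0.94) were just inside that limit. With PLC-8024-GDF1 rescaled so that the median plain log2 ratio of genes with at least 5 TPM is 0, all genes split into 6.97% higher and 6.85% lower, and the group had 2 higher and 2 lower (4.88% each). After a trend on GC content was removed, all genes split into 6.29% and 6.05%, and the group had 3 higher (7.32%) and 2 lower (4.88%). With no filter on low values the shares were 1.24% and 2.47% of all genes, and 2.38% and 4.76% of the group. That setting counts all 58174 genes, of which 14929 reached 1 TPM, while the group goes from 41 to 42 genes. The shares of all genes are lower there for that reason, so this setting is no comparison with the group. All these counts include ARCN1 and SURF4, for whose values the group was chosen. Without the pair, 0 of the other 39 genes were higher past 2-fold and 1 was lower (2.56%) by the first measure above. The counts are too small to place the group under or over the background.

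The median change of the 41 genes was -0.16, with a middle range from -0.55 to 0.09, and that of all genes was -0.20, with a middle range from -0.59 to 0.22. Relative to the median of all genes, 21 of the 41 were above and 20 below. Set against 0, 28 of the 41 were lower in PLC-8024-GDF1 cells, as were 9443 of all 14929 genes. Without ARCN1 and SURF4, the median of the other 39 was also -0.16, and their changes ran from -1.30 to 0.94. The summed level of the 41 genes was 4941 TPM in PLC-8024-CTR cells and 4853 TPM in PLC-8024-GDF1 cells. Among the others, SEC24D was rank 720 from the bottom of all genes, COPB1 rank 1467 from the bottom and TMED2 rank 814 from the top.

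**Figure D1:**
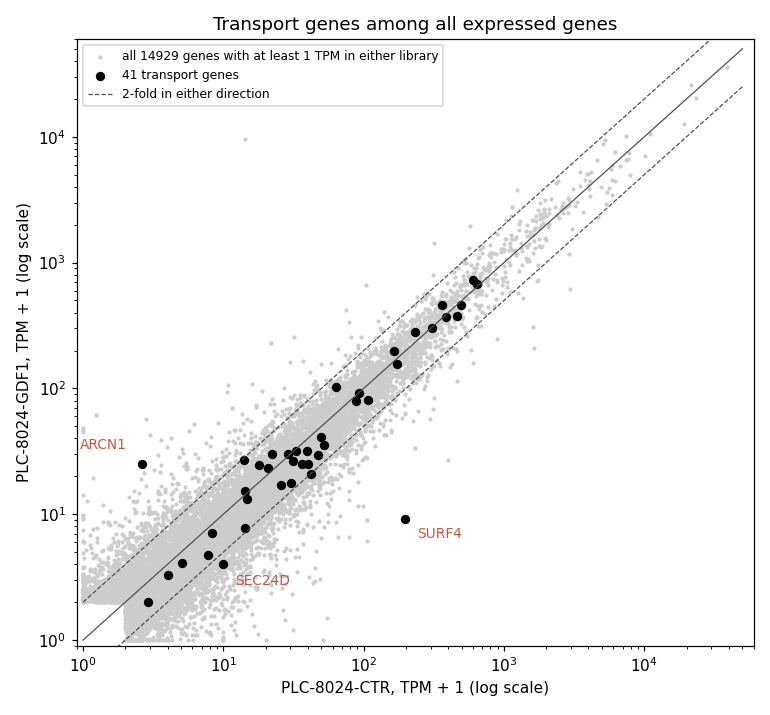
TPM + 1 of each gene in PLC-8024-CTR (x axis) and PLC-8024-GDF1 (y axis), both on log scales. Grey points are all 14929 genes that reached 1 TPM, black points are the 41 transport genes, the solid line marks equal values and the dashed lines a 2-fold difference. ARCN1 lies above the dashed lines, SURF4 and SEC24D lie below them, and the other 38 lie between them.

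The coatomer subunits are needed in 1 complex, and since TPM is scaled by length, their levels were set side by side. The longest transcripts of COPE and COPZ1 have 1770 and 1890 bases, and those of COPG1 and COPB1 3231 and 3481. Those of COPA and COPB2 have 7864 and 12586 bases. Whether transcript length, GC content or capture on poly-T beads shifts TPM between these genes was not tested. The levels are of messenger RNA and not of the proteins in the complex. COPE, the epsilon subunit, was the highest in both libraries at 604.8 and 729.1 TPM. COPZ1 (zeta) stood at 170.8 and 155.5 TPM and COPG1 (gamma) at 87.2 and 78.2 TPM. The large subunits COPA (alpha, 35.5 and 24 TPM), COPB1 (beta, 40.8 and 20.1 TPM) and COPB2 (beta-prime, 38.5 and 30.7 TPM) were lower, and each had a lower value in PLC-8024-GDF1 cells, though the sign for COPB2 turned after removal of the GC trend. Log2 changes were -0.55, -0.99 and -0.32 for these and 0.27 for COPE. The minor paralogs COPG2 (4.05 and 3.10 TPM) and COPZ2 (0.56 and 0.45 TPM) added little.

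With each paralog pair added up, ARCN1 was the lowest of the 7 subunits in PLC-8024-CTR cells, at 2.50% of the median of the other 6 (66.1 TPM). In PLC-8024-GDF1 cells it was at 43.0% of that median (56.0 TPM). There it lay next to COPA, with COPB1 the lowest. The ARCN1 level in PLC-8024-CTR cells was 40.0-fold under the median, the value farthest from the rest of the complex. In PLC-8024-GDF1 cells ARCN1 was 2.33-fold under. The group was chosen for the values of ARCN1, so this distance is a description. COPE lay far over the others, at 1525% of their median in PLC-8024-CTR cells and 2663% in PLC-8024-GDF1 cells. Rescaling a library does not alter these percentages.

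**Figure D2:**
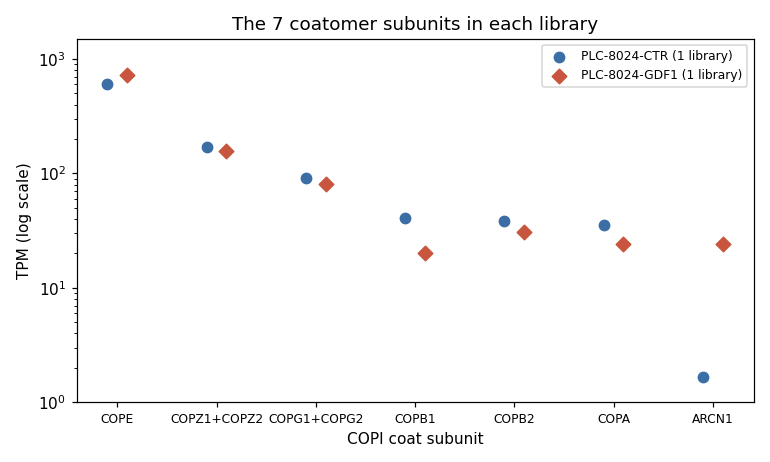
Level (TPM, log scale, y axis) of each of the 7 coatomer subunits (x axis, ordered by level in PLC-8024-CTR) in PLC-8024-CTR (circles) and PLC-8024-GDF1 (diamonds), with paralogs added up. ARCN1 moved from 1.65 TPM, far under every other subunit, to 24.1 TPM, next to COPA at 24 TPM.

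ARF1, the main GTPase that recruits coatomer, was listed at 460.5 and 372.6 TPM, a change of -0.30. ARF4, which acts beside it at the early Golgi, was listed at 62.2 and 101.8 TPM, a change of 0.70. The exchange factor GBF1 stood at 30.6 and 25.3 TPM (-0.26). Of the summed TPM of the GTPase pair, ARF4 thus took 11.9% in PLC-8024-CTR cells and 21.5% in PLC-8024-GDF1 cells. The pair leaves out ARF5 (213.8 and 255.2 TPM) and ARF3 (30.8 and 22.5 TPM), so these are not shares of all ARF genes.

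For the COPII coat, the median change over 12 genes was -0.25, or -0.09 after rescaling and 0.14 with the GC trend removed, and 5 of the 12 were above the median of all genes. The outer cage differed little, with SEC13 at 91.1 and 90.2 TPM and SEC31A at 19.9 and 22.3 TPM. The scaffold of ER exit sites, SEC16A, stood at 27.9 and 29.3 TPM, and the SAR1 exchange factor PREB at 106.9 and 80.5 TPM. The inner coat had lower values in PLC-8024-GDF1 cells for all 6 of its genes, as had 9443 of all 14929 genes. The sign for SEC23A turned under rescaling, and the signs for SEC23A and SEC24A turned after removal of the GC trend. SEC23B stood at 46.1 and 28.8 TPM (-0.66) and SEC23A at 13.8 and 12.3 TPM (-0.15). SEC24C, the most abundant SEC24, stood at 38.8 and 24.2 TPM (-0.66), SEC24A at 3.01 and 2.29 TPM and SEC24B at 1.90 and 1.02 TPM.

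The SEC24 proteins choose different cargo, so their proportions were compared. Their summed level was 52.7 TPM in PLC-8024-CTR cells and 30.6 TPM in PLC-8024-GDF1 cells. SEC24D made up 17.0% of it in PLC-8024-CTR cells and 9.95% in PLC-8024-GDF1 cells, and SEC24C 73.7% and 79.2%. SEC24C was thus the main form in both. For SEC23, the SEC23B share was 77.0% and 70.1%. The SAR1 GTPases differed in opposite directions, with SAR1A at 16.9 and 23.6 TPM (0.46) and SAR1B, the form linked to chylomicron secretion, at 7.33 and 6.15 TPM (-0.22, a sign that turned after removal of the GC trend). The SAR1A share was 69.7% and 79.3%. Reads of similar paralogs can be assigned to the wrong gene, and this was not tested.

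**Figure D3:**
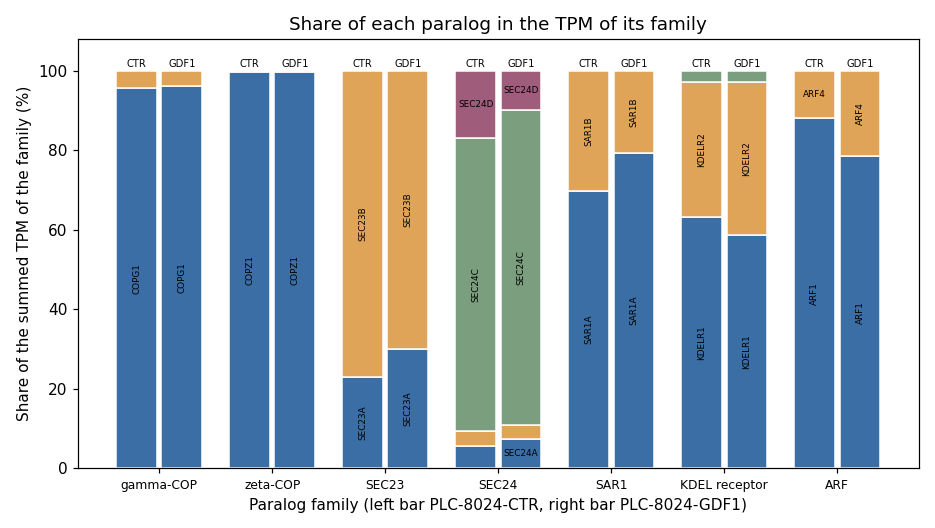
Share of each paralog in the summed TPM of its family (%, y axis) for 7 families (x axis), with PLC-8024-CTR as the left bar and PLC-8024-GDF1 as the right bar. SEC24D narrows from 17.0% to 9.95% of its family, while COPG1 and COPZ1 hold over 95% of theirs in both libraries. The ARF bars hold ARF1 and ARF4 alone.

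All 4 cargo receptors had lower values in PLC-8024-GDF1 cells, as had 9443 of all 14929 genes, and SURF4 is a gene for whose value the group was chosen. The median change of the 4 was -0.67 (-0.29 with the GC trend removed), and -0.56 over the 3 without SURF4. LMAN1, a lectin that carries coagulation factors and alpha-1-antitrypsin, stood at 29.4 and 16.8 TPM (-0.77). MCFD2, its partner, stood at 51.3 and 34.4 TPM (-0.56). Both proteins of this receptor complex thus had lower values, by less than 2-fold. LMAN2, another lectin, was at 384.3 and 369.7 TPM (-0.06), within the range of most genes, and its sign turned under rescaling.

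The p24 proteins link cargo to both coats. TMED2 was listed at 13.2 and 26.2 TPM, a change of 0.94 and a plain ratio of 1.99. TMED3 stood at 363.4 and 460.3 TPM (0.34), TMED9 at 490.6 and 459.7 TPM (-0.09, or 0.11 after rescaling) and TMED10, which pairs with TMED2, at 49.0 and 40.1 TPM (-0.28). The median change of the 4 was 0.12, or 0.33 after rescaling. With the GC trend removed, all 4 were above 0, TMED9 at 0.02 and TMED10 at 0.12, with a median of 0.38.

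The KDEL receptors return chaperones to the ER in COPI vesicles, and their summed level hardly differed, at 480.6 and 509.0 TPM. KDELR1 stood at 303.4 and 298.7 TPM, KDELR2 at 163.9 and 196.0 TPM and KDELR3 at 13.4 and 14.3 TPM. All 3 were above the median change of all genes. Of the translocon, through which proteins enter the ER, SEC61A1 was at 230.3 and 279.9 TPM (0.28) and SEC61B at 636.0 and 674.3 TPM (0.08).

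Among the SNAREs, which fuse ER-derived vesicles with the Golgi, and the tether USO1 the median change was -0.59, or -0.15 with the GC trend removed. USO1 stood at 13.2 and 6.82 TPM (-0.86), SEC22B at 6.73 and 3.75 TPM (-0.70) and BET1 at 24.9 and 16.2 TPM (-0.59). GOSR2 went the other way, at 21.4 and 28.9 TPM (0.42), and STX5 was at 32.1 and 30.9 TPM (-0.05, or 0.15 after rescaling and 0.04 with the GC trend removed). The 4 SNAREs form 1 fusion complex, and in it SEC22B had the lowest level in both libraries.

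**Figure D4:**
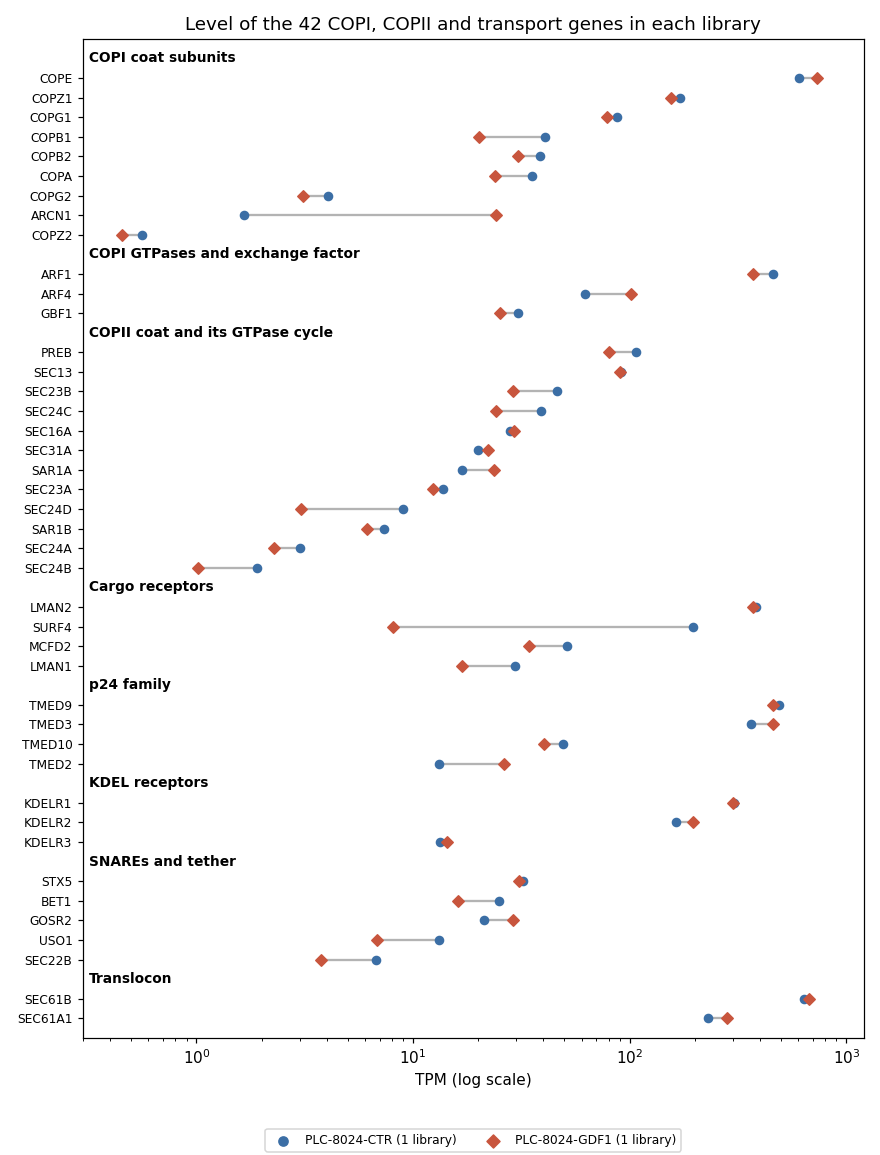
Level (TPM, log scale, x axis) of each of the 42 genes, grouped by role (y axis), in PLC-8024-CTR (circles) and PLC-8024-GDF1 (diamonds), with a grey line joining the values of a gene. The longest lines are those of ARCN1, from 1.65 to 24.1 TPM, and SURF4, from 195.0 to 8.12 TPM.

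The genes around ARCN1 and SURF4 were then listed. ARCN1 (ENSG00000095139) lies on the plus strand of GRCh37 (hg19) at chr11:118443105-118473748, a protein-coding gene whose first 581 bases overlap IFT46 on the other strand. IFT46 was listed at 2.83 and 2.44 TPM, and the sum of the pair at 4.48 and 26.5 TPM, a change of 2.33. PHLDB1, on the same strand and 3407 bases beyond the end of ARCN1, was higher past 2-fold at 3.57 and 11.1 TPM (1.40), as were 4.82% of all genes. KMT2A (2.03 and 1.65 TPM) and TMEM25 (1.94 and 3.06 TPM) were the other expressed genes within 50 kb. The strand of counting was not given in the sources used here, so reads from overlapping genes cannot be told apart.

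SURF4 (ENSG00000148248, minus strand, chr9:136228326-136243037 of GRCh37) overlaps no expressed gene. Of the 10 expressed genes within 50 kb, 1 was lower past 2-fold, as were 9.61% of all genes. It was the small nucleolar RNA SNORD24, at 2.85 and 0.0096 TPM. The median change of the 10 was 0.09. The nearest genes were STKLD1, 200 bases away, at 2.52 and 4.54 TPM, and SURF2, 292 bases away, at 86.0 and 93.4 TPM. SURF1 (100.03 and 141.6 TPM), RPL7A (2404 and 2368 TPM), MED22 (26.2 and 30.0 TPM), SURF6 (33.2 and 28.8 TPM), REXO4 (50.6 and 53.1 TPM), ADAMTS13 (12.0 and 14.3 TPM) and SNORD36C (1.29 and 0.77 TPM) were the others. No protein-coding neighbour was lower past 2-fold. SEC24D (ENSG00000150961) lies on the minus strand at chr4:119643978-119759838 and overlaps no expressed gene.

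Across the group, 17 of the 42 genes overlap an expressed gene, 3 of them on the same strand. These 3 were COPE with AC002985.1 (3.20 and 1.82 TPM), SEC31A with THAP9-AS1 (6.70 and 2.70 TPM) and KDELR2 with DAGLB (19.4 and 17.8 TPM). SEC24A and SAR1B overlap each other by 487 bases on opposite strands. COPE ends 2787 bases from the native CERS1, the gene listed at 9612 TPM in PLC-8024-GDF1 cells. The level of COPE differed far less, as given above. Where the lentivirus inserted is not given in the sources used here, so the distance of COPE from the introduced GDF1 is unknown.

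GC content moved with the change across the transcriptome. Spearman's rho between the GC content of the longest transcript and the log2 change was 0.33 over 11792 protein-coding genes and 0.18 over the 41 genes. These are correlations across genes of the same libraries and a description. The group was poorer in GC, with a median of 44.9% against 49.4% for protein-coding genes. With protein-coding genes cut into terciles of GC content, its 19 genes in the lowest had a median change of -0.30, against -0.46 for protein-coding genes. In the middle and the highest tercile the medians were -0.09 (17 genes) against -0.29, and -0.05 (5 genes) against 0.00. The part of GC content in the results was not tested beyond removing the trend, after which ARCN1 was at 3.58, SURF4 at -4.31 and SEC24D at -1.02, with ARF4 (1.10) and TMED2 (1.35) also past 2-fold.

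The other genes of the ER-Golgi pathway, 101 symbols in 8 lists, were described in the same way. Of the 102 identifiers, 99 had at least 1 TPM, of which 4 were higher past 2-fold (4.04%) and 13 lower (13.1%), with a median change of -0.29. The background over all genes was 4.82% and 9.61%. The largest of these differences was that of YIPF5, a Golgi membrane protein of early transport, at 12.9 and 1.06 TPM (-2.75).

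Fusion and tether genes were 5 of the 13 lower rows (38.5%) and 37 of the 99 expressed rows (37.4%), a like share. NSF, the ATPase that recycles SNAREs, stood at 10.4 and 2.71 TPM (-1.62) and the ER SNARE STX18 at 29.0 and 8.24 TPM (-1.70), the 2 lower of 11 other SNARE and fusion genes. Of 26 tether and matrix rows, 3 were lower and 1 higher past 2-fold. The lower were GOLGA2, the Golgi partner of USO1, at 43.5 and 19.99 TPM (-1.08), the stacking protein GORASP2 at 33.5 and 14.3 TPM (-1.17) and a COG8 identifier at 9.31 and 3.31 TPM (-1.26). The higher was TRAPPC9 of the TRAPP complex, at 9.11 and 20.4 TPM (1.08). USO1 and GOLGA2, which bind each other, both had lower values in PLC-8024-GDF1 cells, as had 9443 of all 14929 genes. The change of USO1 was -0.43 with the GC trend removed. Over the 26 rows, 12 were above the median change of all genes and 14 below.

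Among 15 other ER exit and ERGIC genes, 1 was higher and 2 were lower past 2-fold. ERGIC2 was at 5.39 and 14.4 TPM (1.27), and CNIH1, a cargo receptor, at 20.3 and 8.73 TPM (-1.13), beside YIPF5. Of the 6 other p24 genes, TMED5 (24.6 and 11.4 TPM, -1.04) and TMED7 (3.34 and 0.83 TPM, -1.25) were lower. Of 8 COPI regulators, ARFGEF2, an exchange factor of the later Golgi, was lower at 6.59 and 2.65 TPM (-1.06). For 21 genes of the translocon, the signal recognition particle and the signal peptidase, SSR4 was higher at 1120 and 2362 TPM (1.08) and SRP54 lower at 24.1 and 11.0 TPM (-1.07).

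**Figure D5:**
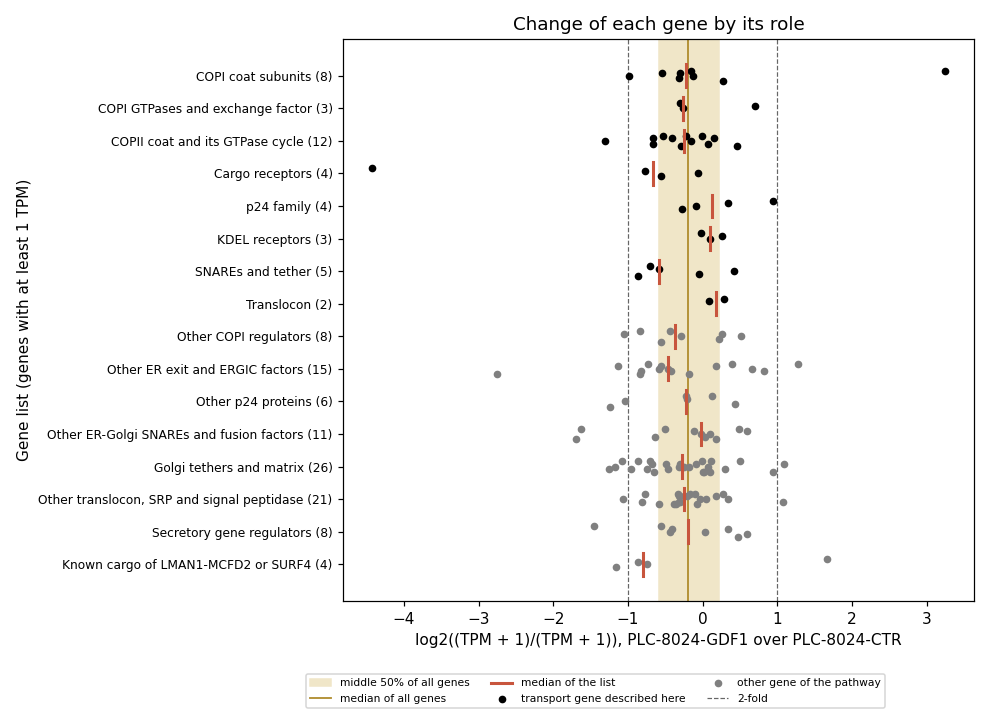
Log2 ratio of TPM + 1, PLC-8024-GDF1 to PLC-8024-CTR (x axis), of each gene by list (y axis, number of genes with at least 1 TPM in parentheses). Black points are the 41 transport genes, grey points the 99 other pathway rows, red bars the list medians, the band the middle 50% of all genes and dashed lines a 2-fold change. ARCN1 at 3.24 and SURF4 at -4.43 lie farther from 0 than every other point drawn.

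Of 8 regulators of secretory genes, XBP1, a factor of the unfolded protein response, was the 1 past 2-fold, at 152.1 and 55.1 TPM (-1.45). ATF6, another such factor, stood at 7.95 and 5.75 TPM, and the chaperone HSPA5, a usual readout of the response, at 364.6 and 463.0 TPM (0.34). ATF4 was at 821.9 and 604.9 TPM and DDIT3 at 75.9 and 77.4 TPM. The genes named here thus gave no common direction. They are a few genes of the response, and its direction as a whole was not tested. Gene-level TPM does not tell the spliced form of XBP1 from the unspliced form.

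The changes of genes with and without a TGACGTG core were set side by side. The 13 with it had a median of -0.15, with a range from -0.99 to 0.28 and none past 2-fold. The 23 with a window and no core had a median of -0.22, and the 1 higher and 1 lower past 2-fold among them were ARCN1 and SURF4, for whose values the group was chosen. Without that pair, the other 21 also had a median of -0.22, from -0.77 to 0.94, with 0 past 2-fold. The share of genes with the core was 36.1% against 3.32% when only genes with at least 1 TPM were counted, and 32.4% against 2.0% with 1 window per gene. Among the other pathway genes it was 8 of 84 (9.52%), namely GORASP1, MIA3, SCFD1, SEC16B, SEC62, SRP19, SSR3 and SSR4. A match is a description of letters and not a bound site.

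ACGTGGC was found in 17 of 37 genes of the group (45.9%) against 1079 of 27305 (3.95%), and in 15 of 35 (42.9%) without ARCN1 and SURF4. It shares ACGTG with the first core, so a window can hold both from the same bases, and 8 genes held both. Either string was present in 20 of 35 genes without ARCN1 and SURF4 (57.1%), and in 22 of 37 with them (59.5%), against 1608 genes (5.89%). The ER stress element, CCAAT and CCACG with 9 bases between them, was found in 0 of 37 windowed genes against 25 genes (0.0916%), and TGACGTCA, the cAMP response element, in 0 of 37 against 614 genes (2.25%), both strands searched. No match says only that these letters are absent from the windows.

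Cargo that these receptors carry was also listed. F5, coagulation factor V and a cargo of LMAN1 and MCFD2, was higher past 2-fold at 11.8 and 39.5 TPM (1.67). SERPINA1, alpha-1-antitrypsin, stood at 5308 and 2915 TPM (-0.86) and APOB, the structural protein of secreted lipoproteins, at 121.9 and 72.4 TPM (-0.74). Cargo of the same receptor thus differed in opposite directions, and these are levels of messenger RNA, which say nothing of how much protein was exported.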

How the data were processed

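Per the methods of the study, mRNA was captured on poly-T beads, made into libraries and sequenced as paired ends. The submitters' processing notes name FastQC 0.11.2, Trimmomatic 0.36, HISAT2 2.1.0, StringTie 1.3.3b and bedtools 2.26.0, with hg19. The authors deposited 1 TPM value per gene and library for 58174 Ensembl identifiers, while the methods name a RefSeq annotation. The column of values is headed MeanTPM although the labels give 1 library per condition, and what a mean would cover is not stated. TPM keeps no depth, and 0.0001 stands in place of 0. No column of another sample was present.

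Samples were grouped by the genotype in their labels. Changes were computed as log2((TPM + 1)/(TPM + 1)) over genes that reached 1 TPM in one library or both, and 2-fold was the limit for a described difference. The study's own test needs read counts, so none was run. GENCODE v44 on GRCh37 held 55726 identifiers and all 42 genes of the group. Promoter windows came from RefSeq (GRCh38.p14), whose coordinates were kept apart from those of GRCh37. They covered 37 of the 42 genes, with none for ARF4, TMED9, KDELR2, SEC24D and USO1. Scripts ran in Python 3.11.15 with pandas 2.3.3, numpy 2.4.6, statsmodels 0.14.6, scipy 1.17.1 and matplotlib 3.10.9, and were tested on simulated data.

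The genes and lists were chosen with earlier results of these data known. Genes outside the group were named where a pathway list had them past 2-fold, where they lay within 50 kb of ARCN1 or SURF4, or as GDF1, CERS1 or a cell type marker. ARF3, ARF5, ATF6, HSPA5, ATF4, DDIT3, SERPINA1 and APOB fall outside that rule. So do COPE's and the other genes' overlapping genes and the pathway genes with a promoter match. All of these were named after their values were seen. Alternatives were other pseudocounts, TPM minimums, a rescaling, a GC trend fitted by lowess with a span of 0.3, protein-coding genes only and symbols added up. The promoter alternatives and the search for ACGTGGC were chosen after seeing the data. A value of the cargo list is not reported here.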

Additional observations from a re-analysis of the deposited data

How the results depend on the processing

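The number of genes of the group past 2-fold was 3 and became 5 after the GC trend was removed, with ARF4 and TMED2 added. It was 4 by the plain TPM ratio and at a pseudocount of 0.1, which added COPB1, and 4 after rescaling, which added TMED2 (1.14). It stayed at 3 with at least 5 TPM, no filter, protein-coding genes only or symbols added up. ARCN1 (2.33 to 3.87), SURF4 (-4.59 to -4.24) and SEC24D (-1.56 to -1.02) were past 2-fold under every alternative run. Of the single-gene values, 321 kept their side of the limit and 5 passed it. The median change of the group, -0.16, was 0.04 after rescaling by a factor of 1.15 and 0.09 after the GC trend was removed, and the sign of 8 and 11 genes turned under these. It lay between -0.17 and -0.14 under the others. The share of all genes past 2-fold was 7.82% higher and 15.5% lower at a pseudocount of 0.1, 8.23% and 16.3% by the plain ratio, and 1.24% and 2.47% with no filter. ARCN1 stood at 2.58% and 44.2% of the median of the other subunits with COPG1 and COPZ1 alone. Adding overlapping genes could not be tried for SURF4, which overlaps no expressed gene. No paired analysis was possible because there is just 1 library on each side. The depth is unknown, and the lowest values (ARCN1 at 1.65 TPM, SEC24B at 1.02 TPM) have no read number beside them.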

Other observations

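Some symbols of the pathway lists had more than 1 row or an older name. A second COG8 identifier was listed at 9.64 and 9.66 TPM, unlike the first, which was lower past 2-fold. MIA2, an ER exit factor for large cargo, was listed at 0 in both libraries, while CTAGE5, its older symbol, stood on a separate row at 15.4 and 13.3 TPM. The readthrough gene TMED7-TICAM2 was listed at 2.44 and 2.15 TPM, between the values of TMED7 itself (3.34 and 0.83 TPM). LMAN1L, the lectin related to LMAN1, and F8, coagulation factor VIII, stayed under 1 TPM in both libraries.

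Membrane proteins of the early Golgi differed in opposite directions. YIF1A was listed at 1270 and 2007 TPM (log2 change 0.66) and YIF1B at 133.2 and 235.3 TPM (0.82), while YIPF5, which binds YIF1A, was at 12.9 and 1.06 TPM. The ERGIC proteins ERGIC1 and ERGIC2 also went opposite ways, with ERGIC1 at 157.6 and 87.5 TPM (-0.84). These genes were named after their values were seen.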
